A study of Homo sapiens with 24 samples.

Results

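The genes described are 37 complement and coagulation factors, chosen as the rows whose Ensembl ID carries 1 of 37 listed symbols in GENCODE release 29. All 37 had a row in the deposited table of 58024 gene IDs. The cells were Huh7, a human hepatoma line, sequenced as poly(A) RNA. The groups were ABHD6 KO and WT cells in basal medium (0 h), ABHD6 KO and WT cells after 24 h in 800 µM palmitic acid, and ABHD6 KO and WT cells after 48 h in 800 µM palmitic acid, with 4 libraries each and 24 in all. ABHD6 encodes a hydrolase of monoacylglycerols and related lipids, and palmitic acid is a saturated fatty acid that is toxic to cultured liver cells at high dose. Neither the origin of the 4 libraries of a group (separate cultures or one) nor the number of knockout clones is stated in the labels, so p-values measure only the spread between these libraries. No culture kept for 24 h or 48 h without palmitic acid was analysed here, so effects of the acid and of longer culture cannot be told apart.

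The liver is the main source of the plasma proteins of both systems. Complement is a cascade of proteases and opsonins that runs through the classical, lectin and alternative pathways to cleavage of C3, then of C5, and ends in a membrane pore built from C5 to C9. Coagulation is a parallel cascade of proteases, several of them vitamin K-dependent, that ends in thrombin and fibrin. It is held in check by protein C, protein S and serpins (serine protease inhibitors), and fibrin is later dissolved by plasmin. Hepatocyte expression of many of these genes is known to depend on liver-enriched transcription factors such as HNF1 and C/EBP.

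Values are FPKM, fragments per unit of transcript length, corrected for library size, so levels can be compared between genes per length. Depth was low. An estimated 391508 to 741621 fragments lay behind each library, and 1 fragment on a 2 kb transcript was worth 0.674 to 1.28 FPKM. The estimate averaged 433060 in KO and 437171 in WT libraries at 0 h. It was 586256 and 610956 in KO and WT libraries at 24 h, and 674944 and 641276 in KO and WT libraries at 48 h. The hepatocyte label held for its markers, with all 17 listed markers above 0, among them albumin (ALB, mean 167 FPKM) and HNF4A (mean 8.90 FPKM). Of other cell types, 2 of 7 endothelial, 6 of 9 immune, 6 of 8 stellate and 8 of 9 biliary and progenitor markers were above 0 in some library. Their summed levels over the 6 groups were 0.653 to 27.0 FPKM (endothelial), 83.7 to 338 FPKM (immune), 0 to 10.1 FPKM (stellate) and 93.7 to 812 FPKM (biliary and progenitor). The highest means were those of PECAM1 (5.27 FPKM) and STAB2 (7.03 FPKM) among endothelial markers, LYZ (183 FPKM) and CD68 (8.29 FPKM) among immune markers, and CD24 (302 FPKM) among biliary and progenitor markers. Listed at 0 in all 24 libraries were CDH5, VWF, KDR, TEK and CLEC4G (endothelial), CD163, MS4A1 and HLA-DRA (immune), DCN and DES (stellate), and KRT7 (biliary). PTPRC, the common leukocyte marker, was above 0 in 3 libraries. ABHD6 itself was above 0 in 7 of 24 libraries, with a mean of 0.239 FPKM, which is too low to check the genotype labels.

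Of the 37 members, 35 were above 0 in at least 1 library, 12 were above 0 in all 24, and C9 and F9 were listed at 0 throughout. Testing required 0.5 FPKM or more on average across the libraries, and 28 members met this limit. The 9 under it were C4B, C6, C8A, C8B, C8G, C9, MBL2, F9 and F13B, of which 7 were above 0 somewhere. Just under the limit lay C8A at 0.369, C8G at 0.433 and F13B at 0.433 FPKM, and just over it C4A at 0.516, C1R at 0.567 and C4BPB at 0.667 FPKM. Means reached 10 FPKM in 10 members and 2 FPKM in 19.

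**Figure D1:**
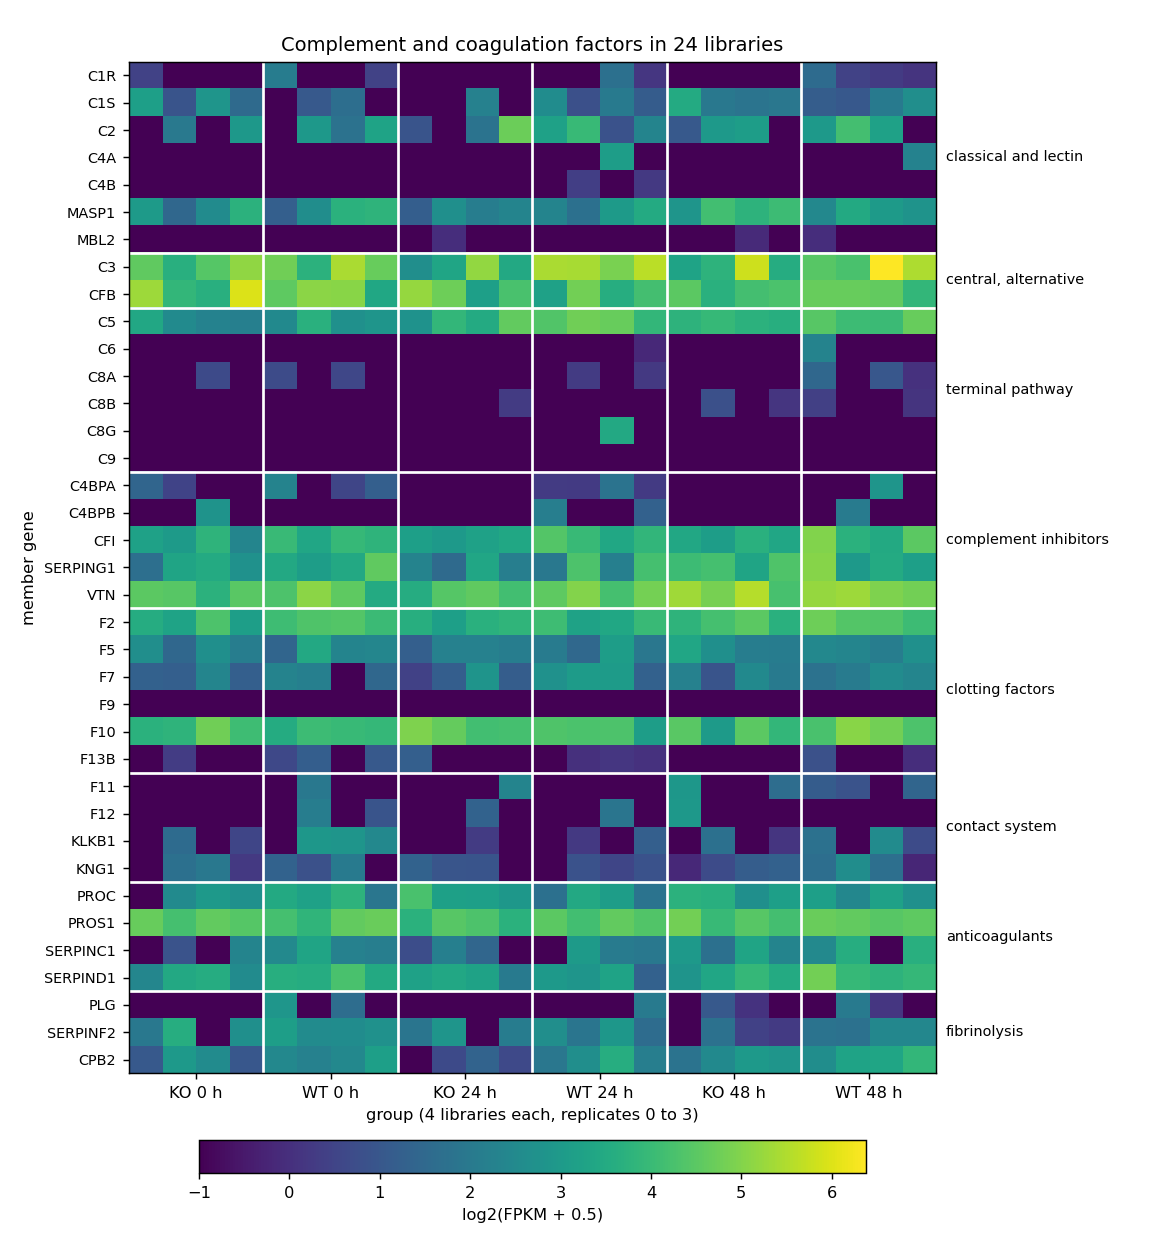
Level of each of the 37 members (rows, grouped by role) in each of the 24 libraries (columns, replicates 0 to 3 within each group), as log2(FPKM + 0.5) on the colour scale, where the darkest colour is 0 FPKM. C3, CFB, VTN, PROS1, F10 and F2 are bright in every column, while C9 and F9 are at 0 in all 24 libraries.

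The classical and lectin components were uneven. MASP1, a protease of the lectin pathway, averaged 7.76 FPKM and was above 0 in all 24 libraries. C2, the protease of the classical and lectin C3 convertase, averaged 5.85 FPKM and C1S, a protease of the C1 complex, 3.03 FPKM. C1R, the partner protease of C1S, averaged 0.567 FPKM and was above 0 in 9 libraries, and the lectin MBL2 was above 0 in 3. C4A was above 0 in 2 libraries and C4B in 2 others; the 2 genes are near-identical copies, so how reads were split between them is uncertain.

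The central component C3 had the highest mean of all members, 28.2 FPKM, and CFB, the protease of the alternative pathway convertase, averaged 22.6 FPKM. CFB overlaps C2 by 23 exonic bases on the same strand. In the terminal pathway, C5 averaged 13.6 FPKM, while the other 5 listed pore components C6, C8A, C8B, C8G and C9 had means from 0 to 0.433 FPKM. C8G reached 10.4 FPKM in 1 WT 24 h library and was listed at 0 in the other 23. Among the inhibitors, vitronectin (VTN), which blocks pore insertion, averaged 25.2 FPKM. Factor I (CFI), the protease that inactivates C3b and C4b, averaged 12.5 FPKM, and SERPING1, the C1 inhibitor, 11.2 FPKM. Both chains of C4b-binding protein were low, C4BPA at 0.917 and C4BPB at 0.667 FPKM.

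Of the clotting factors, F10 averaged 18.6 FPKM and prothrombin (F2) 15.3 FPKM. The cofactor F5 averaged 4.74 FPKM and F7, which starts clotting with tissue factor, 3.60 FPKM. F9, the protease that activates factor X together with factor VIII, was listed at 0 in all libraries, and F13B, the carrier subunit of the crosslinking enzyme, averaged 0.433 FPKM. The anticoagulants were all tested. Protein S (PROS1), the cofactor of activated protein C, averaged 20.6 FPKM, heparin cofactor II (SERPIND1) 10.5 FPKM, protein C (PROC) 7.88 FPKM and antithrombin (SERPINC1) 4.31 FPKM. In fibrinolysis, CPB2, a carboxypeptidase that protects fibrin, averaged 5.34 FPKM. The plasmin inhibitor SERPINF2 averaged 4.09 FPKM and plasminogen (PLG) 0.805 FPKM.

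The 4 contact-system genes were the lowest role group in which every member was tested, with means of 1.61 FPKM for kininogen (KNG1), 1.59 for prekallikrein (KLKB1), 0.943 for F11 and 0.729 for F12. Of these, 3 share exonic bases with a gene on the opposite strand that had a higher mean. KNG1 shares 722 bases with AC068631.1, which averaged 44.1 FPKM. F11 shares 354 bases with F11-AS1, at 23.1 FPKM, and F12 shares 399 bases with GRK6, at 11.2 FPKM. The kit keeps strand, but how strand was treated in counting was not stated in the notes, and annotated antisense genes held 44.0% to 58.1% of each library's summed FPKM. Reads of these pairs may therefore be assigned to the wrong partner. In all, 9 members have such an overlap, 7 of them tested (C2, C4A, MASP1, F10, F11, F12 and KNG1). C5, C3, CFB, VTN, PROS1 and F2 have none on the opposite strand. Having none does not make their levels certain, because the antisense share covers the whole table. The effect of the strand setting on members without such an overlap was not tested. This also applies to C9 and F9, which have no opposite-strand overlap and were listed without signal.

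C5 was the only member to pass the test in any of the 11 comparisons. The gene lies on the minus strand at chr9:120952335-121050276 (GRCh38). It encodes the component whose cleavage releases the inflammatory peptide C5a and starts pore assembly. Its proximal promoter is shown because C5 carries the main result, and that of F2 because it holds the same short motif at a well-expressed coagulation gene. Both are RefSeq windows on GRCh38.p14, from 250 bases before to 50 bases after a RefSeq start, written 5′ to 3′ on the gene's strand. The C5 window is chr9:121050226-121050525 (minus strand), whose start is 1 base from the GENCODE start of the gene. The F2 window is chr11:46718963-46719262 (plus strand), whose start lies 33 bases downstream of the GENCODE start of the gene. Capitals mark a match to GTTAAT, a core motif of HNF1 sites, here read on the other strand as ATTAAC.
C5: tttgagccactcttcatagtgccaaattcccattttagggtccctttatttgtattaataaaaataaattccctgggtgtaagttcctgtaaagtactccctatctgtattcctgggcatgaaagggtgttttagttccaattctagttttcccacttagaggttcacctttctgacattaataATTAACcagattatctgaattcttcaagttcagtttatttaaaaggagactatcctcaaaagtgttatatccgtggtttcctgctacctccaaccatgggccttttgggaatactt
F2: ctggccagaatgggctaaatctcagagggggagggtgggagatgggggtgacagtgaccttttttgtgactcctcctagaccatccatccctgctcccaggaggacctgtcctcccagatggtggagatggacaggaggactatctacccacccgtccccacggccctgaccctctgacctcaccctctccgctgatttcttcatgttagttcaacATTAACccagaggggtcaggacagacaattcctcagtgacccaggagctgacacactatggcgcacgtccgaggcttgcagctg
The match begins 66 bases before the RefSeq start in C5 and 34 bases before it in F2, where it spans the GENCODE start. A second RefSeq start of C5, 24589 bases from the GENCODE start, holds no match in its window. RefSeq windows were found for 29 of the 37 members, 38 windows in all. GTTAAT, searched on both strands, was in 28.9% of these 38 windows, against 6.91% of all 34796 windows of the same length. The 10 member genes with a match were C1R, C4BPA, C5, CFI, F13B, F2, KLKB1, MBL2, PLG and PROC. A C/EBP site, TTGCNNAA, was in 26.3% of the member windows and 10.5% of all windows. An NF-kB site, GGGANTTCC, was in none of the member windows and in 1.85% of all windows. The CHOP-ATF4 composite site TGATGNAA was in 5.26% and 3.63%. A TATA box, TATAAA, was in 5.26% and 11.6%. These are matches of letters, not tested sites.

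C5 was higher in palmitic acid than in basal medium in both genotypes. In KO cells, the 4 libraries held 10.3, 5.26, 4.36 and 4.03 FPKM at 0 h, 6.29, 14.4, 10.9 and 23.8 FPKM at 24 h, and 13.1, 14.9, 12.8 and 11.9 FPKM at 48 h. In WT cells they held 5.15, 12.3, 6.03 and 6.69 FPKM at 0 h, 20.4, 26.8, 24.8 and 14.3 FPKM at 24 h, and 21.4, 16.3, 15.9 and 25.0 FPKM at 48 h. All WT libraries in palmitic acid lay above all WT libraries at 0 h, and all KO libraries at 48 h lay above all KO libraries at 0 h, while the KO groups at 24 h and 0 h overlapped. Of all tested genes, 3.66% were higher without overlap at 24 h in WT cells, 5.01% at 48 h in WT cells and 6.25% at 48 h in KO cells. Means were 5.99 ± 2.93, 13.9 ± 7.41 and 13.2 ± 1.26 FPKM at 0, 24 and 48 h in KO cells, and 7.55 ± 3.25, 21.6 ± 5.55 and 19.7 ± 4.36 FPKM in WT cells (SD, n = 4). The highest C5 values rested on an estimated 113 fragments in WT libraries at 24 h and 121 at 48 h, and on 27.8 fragments in KO libraries at 0 h. The lowest at 0 h rested on 10.9 fragments in KO and 13.2 in WT libraries. In these bulk samples, a change in the number of cells that express a gene and a change in its RNA per cell cannot be told apart.

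Folds are differences of mean log2(FPKM + 0.5), with p-values from limma and Benjamini-Hochberg adjustment over 17252 genes, and a gene is called at an adjusted p under 0.05. C5 rose in WT cells at 24 h against 0 h by 1.49 ± 0.37 (SE; 95% interval 0.72 to 2.26, adjusted p = 0.0210). It rose by 1.38 ± 0.37 at 48 h in WT cells (0.61 to 2.14, adjusted p = 0.0244). In KO cells at 48 h it rose by 1.16 ± 0.37 (0.39 to 1.93, adjusted p = 0.0485). At 24 h in KO cells the difference was 1.09 ± 0.37 with an adjusted p of 0.0934, which misses the threshold. C5 was thus the 1 called member of 28 at 24 h in WT cells, where 4.06% of all tested genes were called, at 48 h in WT cells, where 6.79% were, and at 48 h in KO cells, where 9.82% were. At 24 h in KO cells 0 members were called by limma, 4 had an unadjusted p under 0.05, and 5.64% of all tested genes were called.

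**Figure D2:**
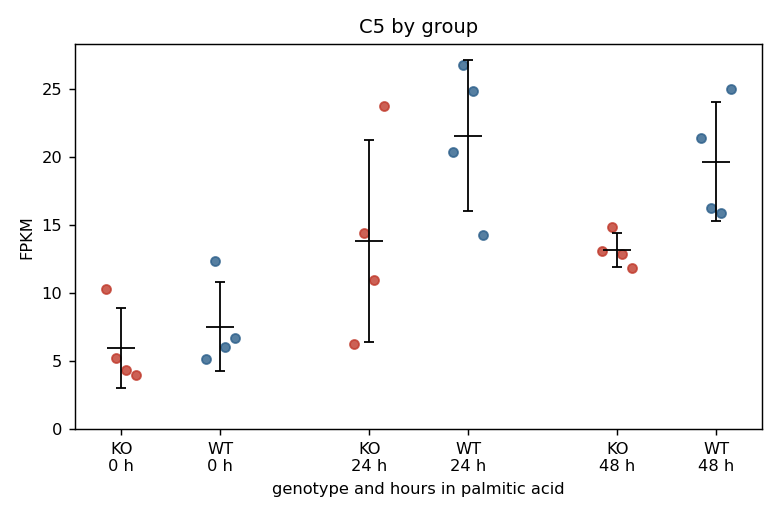
C5 in FPKM by group: each point is 1 library, the long bar the mean and the whiskers ± SD (n = 4), with KO (red) left of WT (blue) at each time. The 4 WT libraries at 24 h lie between 14.3 and 26.8 FPKM, above all 4 WT libraries at 0 h, and the 4 KO libraries at 48 h lie between 11.9 and 14.9 FPKM, below all 4 WT libraries at 48 h.

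The calls of C5 were close to the threshold. All 3 were lost when only the groups compared entered the fit (adjusted p of 0.0736 at 24 h in WT cells, 0.0580 at 48 h in WT cells and 0.0661 at 48 h in KO cells). That at 48 h in KO cells was also lost with a pseudocount of 1 (adjusted p = 0.0505), without the filter on low values (0.0582) or without the variance trend (0.0560). All 3 were lost when only genes free of opposite-strand exon overlap were tested (0.0908 at 48 h in KO cells, 0.0547 at 24 h and 0.0556 at 48 h in WT cells), a choice made after seeing the data. At 24 h in WT cells the call was lost when replicate 0 or 2 of WT 0 h, or replicate 1 or 2 of WT 24 h, was left out, with an adjusted p of at most 0.0708. At 48 h in WT cells it was lost when replicate 0, 2 or 3 of WT 0 h, or replicate 0 or 3 of WT 48 h, was left out, with an adjusted p of at most 0.0774. At 48 h in KO cells it was lost in 7 of 8 such fits, in all but the one without KO 0 h replicate 0, and reached 0.125. At 24 h in KO cells a call was gained in 2 of 8 such fits, with an adjusted p between 0.0271 and 0.289. Every one of these fits kept a positive fold, from 0.79 to 1.74. The mitochondrially encoded share of summed FPKM also differed, at 10.4% to 14.9% over the libraries at 24 h and 48 h and 3.20% to 4.43% over those at 0 h, and its part in the result was not tested.

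C5 in KO cells was not distinguished from WT cells. The fold of KO over WT was -0.33 ± 0.37 at 0 h, -0.73 ± 0.37 at 24 h and -0.54 ± 0.37 at 48 h, with adjusted p-values of 0.900, 0.940 and 0.900. At 48 h all 4 KO libraries lay below all 4 WT libraries. The response in KO cells minus that in WT cells was -0.40 ± 0.52 at 24 h (95% interval -1.49 to 0.68) and -0.21 ± 0.52 at 48 h (-1.30 to 0.87), with adjusted p-values of 0.944 and 0.974.

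The other 27 tested members were not called against 0 h. At 24 h the members' median fold was -0.16 in KO cells and -0.18 in WT cells, and at 48 h it was 0.37 in KO cells and 0.38 in WT cells, where the median of all tested genes was 0 in each. At 48 h against 0 h, 18 of 28 members had a positive fold in KO cells and 20 of 28 in WT cells, while 49.1% and 50.1% of all tested genes did. When each library was left out in turn, the median ranged from -0.21 to 0.00 at 24 h in KO cells, from -0.39 to 0.0026 at 24 h in WT cells, where it changed sign, from 0.27 to 0.49 at 48 h in KO cells and from 0.17 to 0.40 at 48 h in WT cells. The summed hepatocyte markers were also higher at 48 h than at 0 h, without overlap, at 1867 to 2053 FPKM against 1169 to 1262 FPKM in KO libraries and 1994 to 2263 FPKM against 1373 to 1633 FPKM in WT libraries. Abundant markers weigh most in this sum, and not every marker had a higher mean at 48 h (FGB did not in either genotype). The summed biliary and progenitor markers were 340 to 577 FPKM at 48 h against 93.7 to 187 FPKM at 0 h in KO libraries, and 448 to 812 FPKM against 164 to 288 FPKM in WT libraries. The antisense share of summed FPKM was 44.0% to 47.4% at 48 h against 56.1% to 58.1% at 0 h over both genotypes. The part of these values in the members' folds was not tested. These comparisons share their 0 h libraries within each genotype. Those with an unadjusted p under 0.05 were PROC and C5 (higher) with C1S and CPB2 (lower) in KO cells at 24 h, and C5, PROC and SERPINC1 (higher) in KO cells at 48 h. In WT cells they were C5 (higher) with KLKB1 and SERPIND1 (lower) at 24 h, and C5 and F10 (higher) at 48 h. The share of all tested genes at that limit was 17.8% and 21.7% in KO cells at 24 h and 48 h, and 15.8% and 18.8% in WT cells, so the members' counts of 4, 3, 3 and 2 of 28 lie below it.

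**Figure D3:**
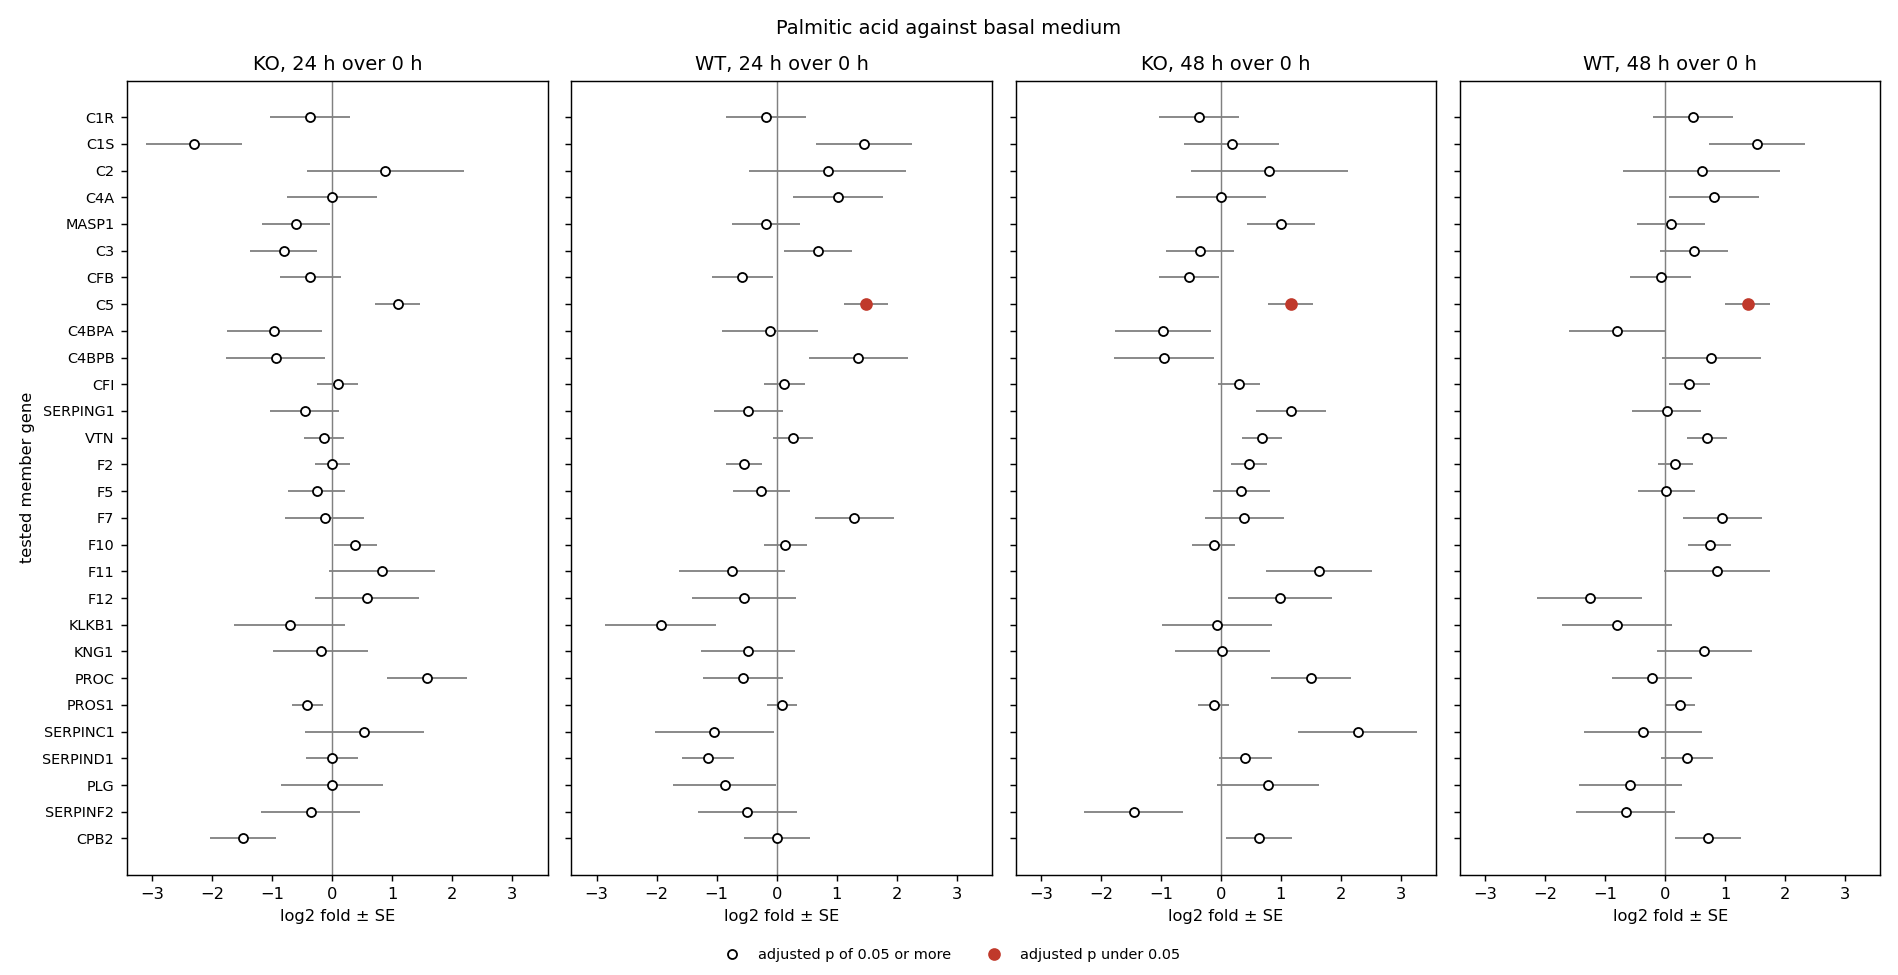
Log2 fold of FPKM + 0.5 in palmitic acid over basal medium for the 28 tested members, by genotype and time; points are estimates, lines ± SE, and red points have an adjusted p under 0.05. C5 is the 1 red point at 24 h in WT cells (1.49), at 48 h in KO cells (1.16) and at 48 h in WT cells (1.38).

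Between 48 h and 24 h, 0 members were called by limma in either genotype. The background was 0.516% of tested genes called in KO cells and 0.122% in WT cells. With an unadjusted p under 0.05, 5 members were higher at 48 h in KO cells (C1S, MASP1, SERPING1, VTN and CPB2) and 2 in WT cells (F2 and SERPIND1), against 9.3% and 7.23% of all tested genes in either direction. CPB2 had the lowest adjusted p, 0.0866, in KO cells, and was chosen for description after its values were seen. Its 4 KO libraries held 3.01, 5.16, 7.43 and 6.64 FPKM at 48 h and 0, 1.07, 2.03 and 1.05 FPKM at 24 h, without overlap (as for 2.43% of tested genes), a fold of 2.13 ± 0.55. An estimated 3.5 to 8.0 fragments per library lay behind the 48 h values, and 0 to 2.0 behind those at 24 h.

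The 6 members with the highest means were steady or scattered over time. C3 in KO libraries was 23.3, 11.97, 21.2 and 35.4 FPKM at 0 h, 5.70, 9.53, 35.5 and 10.4 FPKM at 24 h, and 9.18, 13.1, 55.4 and 11.5 FPKM at 48 h. In WT libraries it was 27.0, 12.8, 42.6 and 24.6 FPKM at 0 h, 42.9, 42.5, 29.3 and 48.1 FPKM at 24 h, and 21.3, 18.4, 82.5 and 43.7 FPKM at 48 h. Replicate 2 was the highest KO library at 24 h and 48 h, and the other 3 KO libraries at each of these times lay below every WT library of the same time. The fold of KO over WT was -0.19 ± 0.57 at 0 h, -1.70 ± 0.57 at 24 h (95% interval -2.87 to -0.53, adjusted p = 0.785) and -1.03 ± 0.57 at 48 h (adjusted p = 0.823).

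Vitronectin (VTN) in KO libraries was 22.6, 21.5, 12.9 and 22.2 FPKM at 0 h, 11.2, 21.0, 23.2 and 17.1 FPKM at 24 h, and 39.9, 28.8, 46.5 and 18.2 FPKM at 48 h. In WT libraries it was 19.6, 33.8, 22.8 and 10.8 FPKM at 0 h, 22.6, 31.4, 17.9 and 28.2 FPKM at 24 h, and 36.7, 38.6, 30.1 and 27.3 FPKM at 48 h. The 48 h libraries were mostly the highest, but overlapped those at 0 h in both genotypes. The fold of 48 h over 0 h was 0.69 ± 0.34 in KO cells and 0.69 ± 0.34 in WT cells, with adjusted p-values of 0.236 and 0.267.

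CFB was among the most scattered. In KO libraries it was 38.8, 14.2, 12.1 and 62.7 FPKM at 0 h, 36.2, 26.1, 8.38 and 18.7 FPKM at 24 h, and 22.5, 12.3, 17.6 and 19.2 FPKM at 48 h. The WT libraries held 23.02, 33.4, 33.1 and 9.91 FPKM at 0 h, 8.80, 27.7, 11.6 and 17.6 FPKM at 24 h, and 24.8, 24.8, 23.7 and 14.2 FPKM at 48 h. Its groups overlapped in every comparison, and its folds against 0 h lay between -0.57 and -0.07.

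Protein S (PROS1) had the smallest spread of the 6 on the log2 scale. In KO libraries it was 24.8, 17.8, 23.9 and 21.1 FPKM at 0 h, 12.7, 21.6, 19.5 and 12.7 FPKM at 24 h, and 27.3, 15.2, 21.6 and 17.4 FPKM at 48 h. Its WT libraries held 17.8, 13.8, 23.6 and 25.2 FPKM at 0 h, 22.5, 17.1, 24.0 and 20.4 FPKM at 24 h, and 25.2, 23.9, 21.5 and 22.9 FPKM at 48 h. The groups overlapped in every comparison, and the fold of 48 h over 0 h was -0.12 ± 0.25 in KO cells and 0.25 ± 0.25 in WT cells.

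F10, the protease that forms thrombin, was 12.6, 13.4, 27.1 and 16.6 FPKM at 0 h, 30.2, 24.3, 17.3 and 17.8 FPKM at 24 h, and 22.1, 7.57, 22.2 and 14.3 FPKM at 48 h in KO libraries. The WT libraries held 11.1, 16.2, 15.0 and 14.6 FPKM at 0 h, 19.8, 19.1, 19.3 and 8.12 FPKM at 24 h, and 18.5, 33.1, 27.3 and 19.4 FPKM at 48 h. The WT libraries at 48 h lay above all WT libraries at 0 h, with a fold of 0.74 ± 0.36 and an adjusted p of 0.264. In KO cells that fold was -0.12 ± 0.36, and the difference between the genotypes' responses was -0.86 ± 0.51 (adjusted p = 0.802).

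Prothrombin (F2) was 11.3, 9.29, 19.3 and 8.36 FPKM at 0 h, 11.8, 8.54, 12.5 and 13.7 FPKM at 24 h, and 13.5, 17.8, 22.2 and 12.3 FPKM at 48 h in KO libraries. Its WT libraries held 16.5, 19.8, 20.8 and 15.9 FPKM at 0 h, 16.5, 8.99, 9.91 and 15.4 FPKM at 24 h, and 26.2, 20.5, 20.1 and 16.2 FPKM at 48 h. At 0 h, 3 of 4 KO libraries lay below all WT libraries, with a fold of -0.64 ± 0.30 and an adjusted p of 0.6995.

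**Figure D4:**
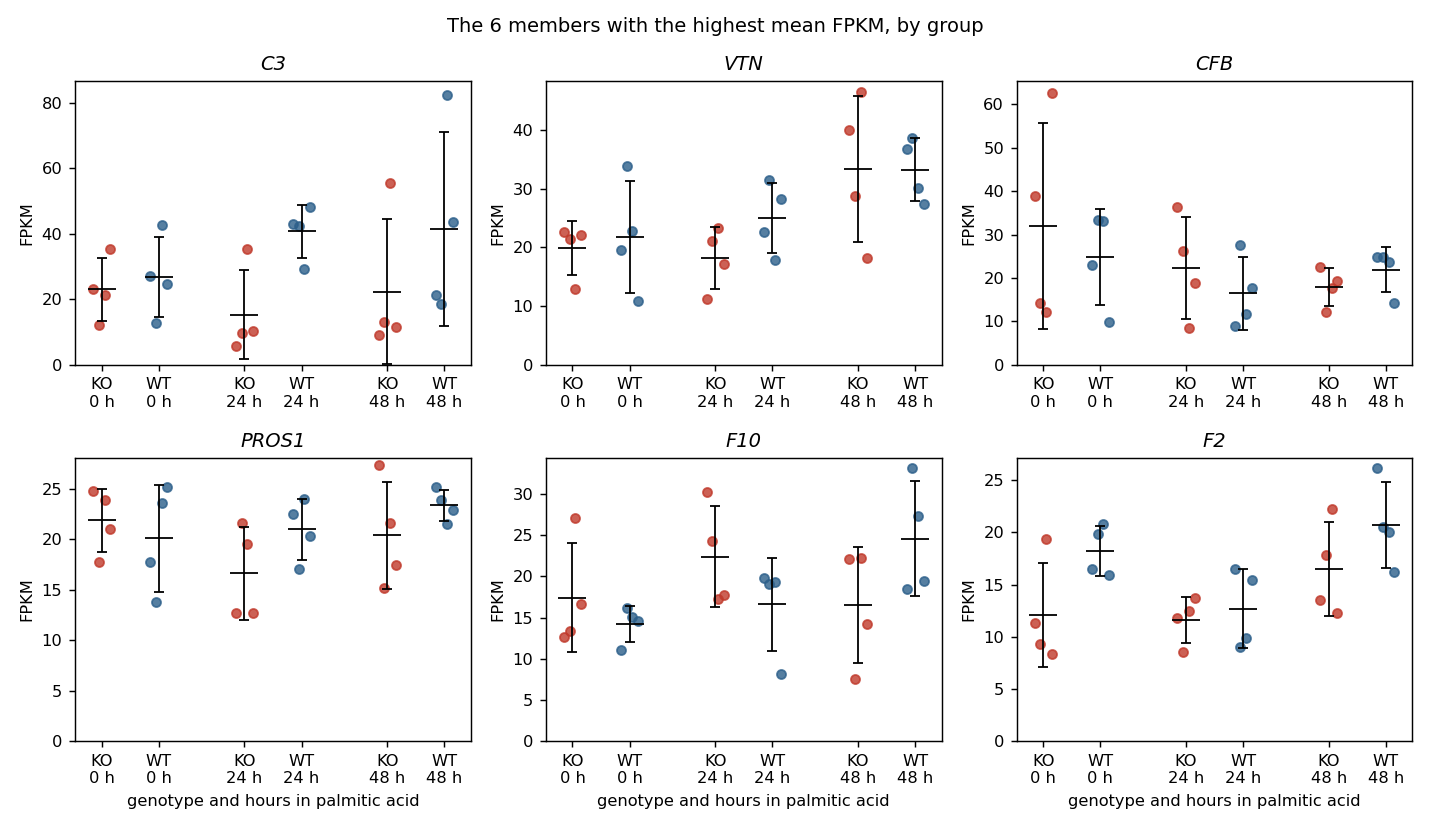
FPKM by group for the 6 members with the highest mean: points are libraries, the long bar the mean and the whiskers ± SD (n = 4), KO (red) left of WT (blue) at each time. In C3, 1 KO library stands at 35.5 FPKM at 24 h and 1 at 55.4 FPKM at 48 h, above the other 3 KO libraries of that time.

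Between KO and WT cells at the same time, 0 of 28 tested members were called by limma at 0 h, 24 h or 48 h. The background was 0.0985%, 0.0116% and 0.0638% of tested genes, so few genes of any kind were called. With an unadjusted p under 0.05 there were 3 members at 0 h (C1S higher, F2 and SERPINC1 lower), 4 at 24 h (C1S, C3, C4BPA and CPB2, all lower) and 3 at 48 h (C1R, CFI and SERPINF2, all lower), against 6.92%, 5.17% and 6.56% of all tested genes. Of these, C4BPA and C1R reached the limit for testing only through WT libraries, which favours their lower values in KO cells and their place in these counts. The smallest adjusted p of a member was 0.618 at 0 h, 0.467 at 24 h and 0.669 at 48 h.

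Most members nevertheless had lower fitted values in KO cells. Of the 28, 4 (C1R, C4A, C4BPA and PLG) averaged under 0.5 FPKM in KO libraries and reached the limit for testing only through WT libraries, so their lower values in KO cells are favoured by that limit, and 0 reached it only through KO libraries. Of the other 24, 18 had a negative fold at 0 h, 18 at 24 h and 16 at 48 h, against 47.5%, 48.0% and 51.5% of the 15519 genes at 0.5 FPKM or more in both genotypes. The median fold of these 24 was -0.48 at 0 h, -0.55 at 24 h and -0.31 at 48 h. Over all 28, the fold was negative in 21, 22 and 20 and the median was -0.66, -0.69 and -0.44, where all tested genes had medians of 0, 0 and -0.0035. Leaving out each library in turn gave medians of the 28 from -0.60 to -0.42 at 0 h, from -0.72 to -0.45 at 24 h and from -0.51 to -0.26 at 48 h. At 0 h 0 members had KO and WT libraries without overlap. Without overlap and lower in KO cells were CPB2 at 24 h, and C5 and SERPINF2 at 48 h, with C4BPA at 24 h and C1R at 48 h of those that reached the limit only through WT libraries. Over all tested genes, 1.31%, 1.32% and 2.36% were lower in KO cells without overlap at 0 h, 24 h and 48 h. The summed level of the 17 hepatocyte markers, none of them a member, was also lower in KO cells at 0 h, without overlap, and overlapped at 24 h and 48 h. It was 1169 to 1262 FPKM in KO and 1373 to 1633 FPKM in WT libraries at 0 h, 957 to 1241 FPKM in KO and 1221 to 1558 FPKM in WT libraries at 24 h, and 1867 to 2053 FPKM in KO and 1994 to 2263 FPKM in WT libraries at 48 h. Its part in the members' values was not tested.

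**Figure D5:**
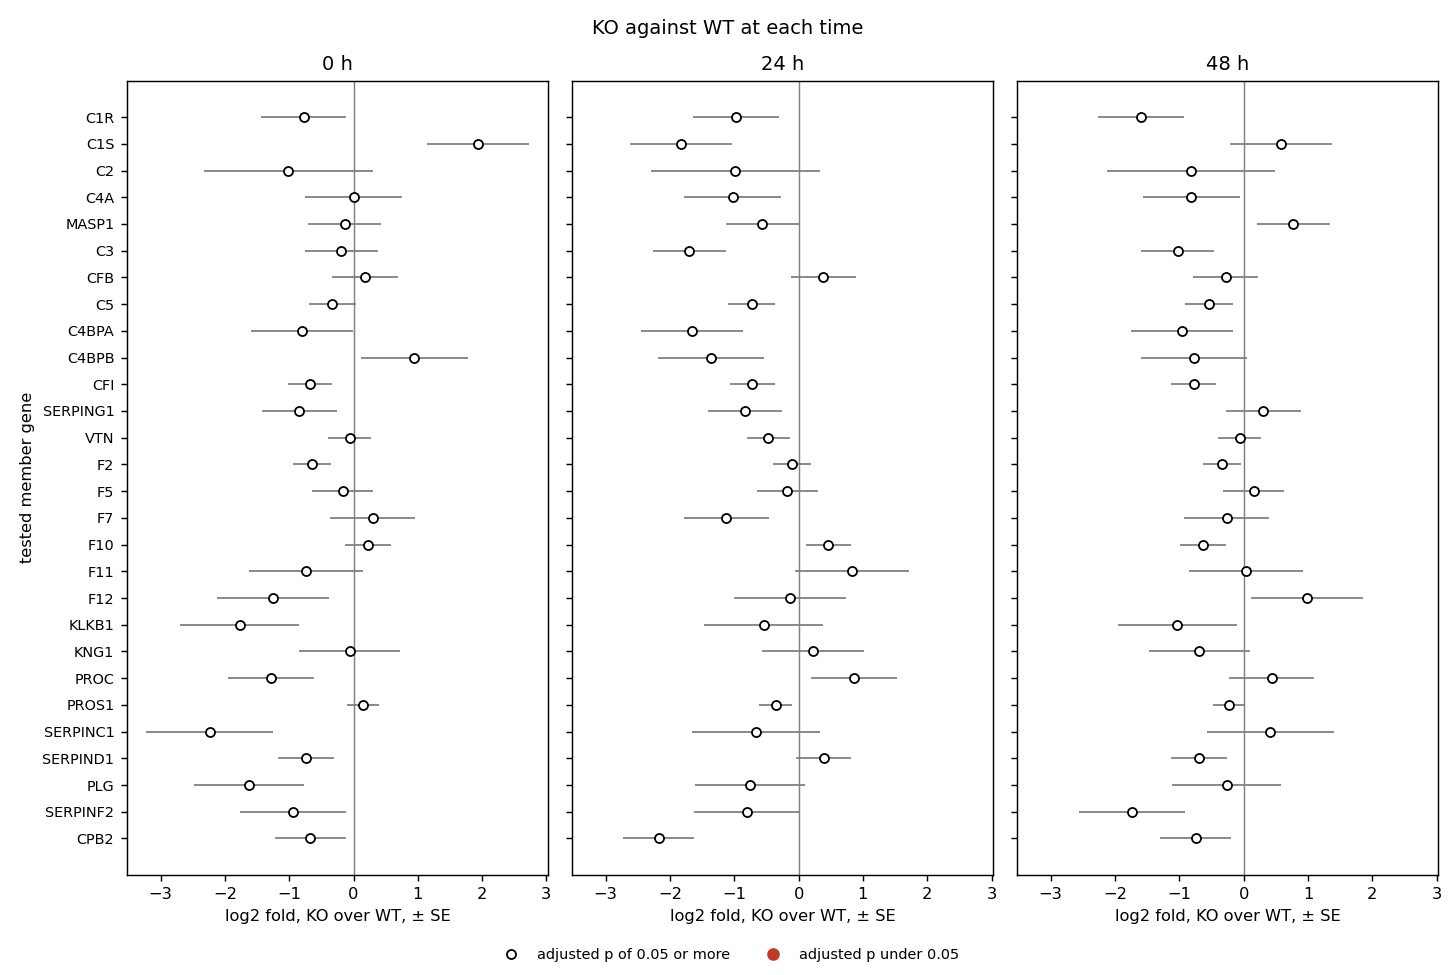
Log2 fold of FPKM + 0.5 in KO over WT for the 28 tested members at 0 h, 24 h and 48 h; points are estimates and lines ± SE, and an open point has an adjusted p of 0.05 or more. All points are open, and 21, 22 and 20 of the 28 lie left of 0 at 0 h, 24 h and 48 h.

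How often a member was above 0 was also compared. Of the 23 members above 0 in some but not all libraries, 19 (82.6%) were above 0 in fewer of the 12 KO than of the 12 WT libraries, 3 in more and 1 in as many. Over all 16941 genes of the table that were above 0 in some but not all libraries, 41.8% were above 0 in fewer KO libraries and 41.2% in more. These genes were not matched to the members in level. C1R was above 0 in 1 KO and 8 WT libraries, C4BPA in 2 and 8, C8A in 1 and 7, F13B in 2 and 8, and PLG in 2 and 5. Few fragments lay behind these values. The highest library rested on an estimated 3.0 for C8A and for F13B, 9.8 for C1R, 10.0 for C4BPA and 17.0 for PLG. Gaps were smaller for C1S (9 and 10), C8G (0 and 1), F11 (3 and 4), F12 (2 and 3), PROC (11 and 12), SERPINC1 (9 and 10) and CPB2 (11 and 12). The 3 members above 0 in more KO libraries were MBL2 (2 and 1), C8B (3 and 2) and F7 (12 and 11). The numbers of genes above 0 per library averaged 13303 in KO and 13326 in WT at 0 h, 14139 in KO and 14180 in WT at 24 h, and 14637 in KO and 14603 in WT at 48 h. The 23 members span means from 0.0571 FPKM (MBL2) to 7.88 FPKM (PROC), and their counts were noted after the values were seen and carry no test.

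Factor I (CFI) was also described after its values were seen. In KO libraries it was 8.90, 7.60, 13.3 and 4.60 FPKM at 0 h, 8.49, 7.28, 8.83 and 9.99 FPKM at 24 h, and 10.2, 8.14, 12.3 and 9.85 FPKM at 48 h. In WT libraries it was 15.4, 9.76, 15.0 and 13.3 FPKM at 0 h, 20.7, 15.3, 9.91 and 13.9 FPKM at 24 h, and 31.0, 12.7, 10.7 and 22.6 FPKM at 48 h. Most WT libraries were higher, with overlap at each time. The fold of KO over WT was -0.68 ± 0.35 at 0 h, -0.72 ± 0.35 at 24 h and -0.78 ± 0.35 at 48 h, with adjusted p-values of 0.744, 0.940 and 0.720.

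CPB2 at 24 h had the lowest adjusted p of the KO and WT comparisons. Its libraries held 0, 1.07, 2.03 and 1.05 FPKM in KO cells, against 3.27, 5.73, 11.6 and 3.98 FPKM in WT cells, a fold of -2.17 ± 0.55 (adjusted p = 0.467). These values rested on an estimated 0 to 2.0 fragments per KO library and 3.2 to 11.9 per WT library.

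The responses to palmitic acid were not called different between the genotypes for any member. By limma, 0 of 28 passed at 24 h, where 0% of tested genes did, and 0 of 28 at 48 h, where 0.0522% did. Unadjusted p-values under 0.05 were held by PROC and C1S at 24 h and by 0 members at 48 h, against 5.51% and 6.6% of tested genes. C1S, named after its values were seen, had the smallest adjusted p at 24 h, 0.776. It was 8.46, 1.38, 6.70 and 2.45 FPKM in KO libraries at 0 h and 0, 0, 4.26 and 0 FPKM at 24 h, and 0, 1.58, 2.70 and 0 FPKM in WT libraries at 0 h and 5.46, 1.23, 3.62 and 1.71 FPKM at 24 h. The KO response minus the WT response was -3.76 ± 1.12.

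Genes that act with the members were taken from 2 lists. The first held 33 complement receptors and regulators, of which 20 were above 0 in some library and 14 were tested. At 24 h against 0 h limma called 0 of 14 in either genotype. An unadjusted p under 0.05 was held by 1 in KO cells and 2 in WT cells, against 17.8% and 15.8% of all tested genes. At 48 h against 0 h, 2 of 14 were called higher in KO cells, where 9.82% of all tested genes were called in either direction, and 1 of 14 in WT cells, where 6.79% were, with 0 lower. Clusterin (CLU), a secreted chaperone that blocks pore assembly, rose at 48 h in both genotypes. It averaged 378 ± 63.2 FPKM at 48 h and 235 ± 55.8 FPKM at 0 h in KO cells, a fold of 0.70 ± 0.19 (adjusted p = 0.0157). In WT cells it averaged 478 ± 63.2 FPKM at 48 h and 240 ± 46.8 FPKM at 0 h, a fold of 1.01 ± 0.19 (adjusted p = 0.00116; SD, n = 4 each). It was also called higher at 48 h than at 24 h, by 1.06 in KO cells (adjusted p = 0.00648) and 1.03 in WT cells (adjusted p = 0.0190). CD46, a membrane cofactor for cleavage of C3b, rose in KO cells at 48 h to 23.9 ± 5.56 FPKM, against 8.56 ± 4.50 FPKM at 0 h, a fold of 1.54 ± 0.44 (adjusted p = 0.0272).

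The second list held 35 receptors, cofactors, processing enzymes and fibrinolysis genes of coagulation, of which 31 were above 0 in some library and 28 were tested. At 24 h against 0 h, limma called 0 higher and 1 lower in KO cells, and 2 higher and 1 lower in WT cells. At 48 h against 0 h, it called 3 higher and 1 lower in KO cells, and 5 higher and 1 lower in WT cells. Of all tested genes, 5.64%, 4.06%, 9.82% and 6.79% were called in these 4 comparisons. The count of 1 of 28 lies below that share and those of 3, 4 and 6 of 28 lie above it. Both lists were chosen with earlier results of these data known, so these counts are not a test of the lists. Unadjusted p-values under 0.05 in limma were held by 8, 10, 7 and 9 of 28, against 17.8%, 15.8%, 21.7% and 18.8% of all tested genes. SERPINE2, an inhibitor of thrombin and plasminogen activators, rose in WT cells by 2.61 ± 0.67 at 24 h (adjusted p = 0.0279) and 3.16 ± 0.67 at 48 h (adjusted p = 0.00425), with 0 to 0.359 FPKM in WT libraries at 0 h. Tissue factor (F3), the trigger of clotting, was called higher in WT cells at both times (limma adjusted p of 0.0491 at 24 h and 0.0421 at 48 h). It was 0.735 to 3.60 FPKM at 24 h and 1.23 to 2.52 FPKM at 48 h in WT libraries. At 0 h every WT library had F3 at 0, so no fold is given, while the highest KO library held 2.46 FPKM. The protease-activated receptor F2RL1 was called higher at 48 h in both genotypes, with 3.23 ± 1.35 FPKM in KO cells and 2.78 ± 0.90 FPKM in WT cells. Its WT libraries at 0 h were likewise all at 0. With 1 fragment on 2 kb worth 0.674 to 1.28 FPKM, F3, F2RL1 and the low values of SERPINE2 rest on few fragments. Estimated depth in WT libraries averaged 437171 fragments at 0 h, 610956 at 24 h and 641276 at 48 h, so a 0 was likelier at 0 h. The part of depth in these calls was not tested. ANXA2, a cell surface receptor that promotes plasmin formation, rose at 48 h by 1.22 ± 0.27 in KO cells and 1.23 ± 0.27 in WT cells (adjusted p of 0.00409 and 0.00591). The fibrinogen chain FGB fell at 24 h by 0.78 on the log2 scale in KO cells and by 0.60 in WT cells (SE 0.16; adjusted p of 0.00324 and 0.0323), and its fold at 48 h was -0.11 and -0.06. GGCX, the carboxylase that acts on vitamin K-dependent factors, fell at 48 h by 0.68 in KO and 0.69 in WT cells (SE 0.14; adjusted p of 0.00198 and 0.00267). TFPI, the inhibitor of the tissue factor pathway, rose at 48 h in KO cells by 1.01 ± 0.27 (adjusted p = 0.0169), and MCFD2, which helps export factor V, rose at 48 h in WT cells by 0.97 ± 0.27 (adjusted p = 0.0266). GGCX, TFPI and MCFD2 share 558, 118 and 595 exonic bases with a gene on the opposite strand. Their means over all libraries were 179, 39.7 and 42.7 FPKM. The part of opposite-strand reads in the levels and folds of GGCX, TFPI and MCFD2 was not tested. Limma called 0 genes of either list between KO and WT cells at any time or for the difference of responses. In these comparisons unadjusted p-values under 0.05 numbered 0 to 2 of 14 in the first list and 1 to 3 of 28 in the second. Of all tested genes, 5.17% to 6.92% had such a p-value.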

How the data were processed

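Huh7 RNA was prepared with an RNeasy kit and made into TruSeq directional mRNA libraries for a NovaSeq sequencer, per the labels' protocols. The deposited table holds FPKM values made by the authors; the submitters' processing notes name GRCh38, STAR, Cufflinks and Cuffdiff, while versions, roles and the strand setting are not given in the sources used here. No fragment counts were used. Groups came from the labels and times from the sample titles and the design text, while the protocol names a harvest on day 1 only.

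IDs were matched to GENCODE release 29 without their version (57375 of 57979, after 45 chromosome Y copies, all at 0, were left out). The 6 groups were fitted together with limma 3.58.1 (run in R 4.3.3) on log2(FPKM + 0.5), with a variance trend, over 17252 genes averaging 0.5 FPKM or more. The fit had 18 residual degrees of freedom, and p-values were Benjamini-Hochberg adjusted within each of 11 comparisons. The pseudocount makes folds of low genes too small. The fit was tested on simulated data. Depth was estimated from the smallest FPKM steps of genes with 1 transcript. Tables and figures were made with Python 3.11.15, pandas 2.3.3 and matplotlib 3.10.9.

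Library values are given for members called in any comparison and for the 6 with the highest mean, and other pathway genes are named where called; other genes named with values were chosen after these were seen. The members and lists were chosen with earlier results of these data known, and some genes of the lists are not reported here. Alternatives were other pseudocounts, filters and scalings, no variance trend, a replicate block, fits of the compared groups alone and the omission of each library. Replicate numbers were checked for pairing on 3341 genes averaging 20 FPKM or more: the deviations of same-numbered libraries correlated between -0.125 and 0.144, so the numbers were not taken to pair samples.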

Additional observations from a re-analysis of the deposited data

Results flagged for a closer look

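In groups of 4 libraries, 1 library was marked when its gap to the nearest other exceeded Dixon's 95% limit as a share of the group's range. Of 60 groups examined over 10 members, 7 held such a library; chance marks about 1 in 20 groups. C3 was 35.5 FPKM in replicate 2 of the KO 24 h group, where the others were 5.70 to 10.4. In replicate 2 of the KO 48 h group C3 was 55.4 FPKM and the others 9.18 to 13.1. VTN was 12.9 FPKM in replicate 2 of the KO 0 h group, below the others at 21.5 to 22.6. CFB was 14.2 FPKM in replicate 3 of the WT 48 h group, below 23.7 to 24.8. F10 was 8.12 FPKM in replicate 3 of the WT 24 h group, below 19.1 to 19.8. C1S was 4.26 FPKM in replicate 2 of the KO 24 h group, whose others were listed at 0. In replicate 0 of the KO 48 h group C1S was 10.9 FPKM, above 3.05 to 3.36.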

How the results depend on the processing

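Apart from the omission of single libraries, the count of called members changed in 11 of 110 combinations of a comparison and an alternative, each time between 1 and 0, and the cause was not tested. At 48 h against 0 h in KO cells it was 0 with a pseudocount of 1 (adjusted p of C5 0.0505), no filter on low values (0.0582) or no variance trend (0.0560). It was 0 in that comparison and in WT cells at 24 h and 48 h with only the compared groups in the fit. It was also 0 in all 3 with only genes free of opposite-strand exon overlap (adjusted p of C5 0.0908, 0.0547 and 0.0556), an alternative chosen after seeing the data that tests fewer genes. The fit with replicate numbers as a block gave 0 at 48 h against 0 h in KO cells (adjusted p of C5 0.0614) and 1 at 48 h against 24 h in KO cells, CPB2 (0.0367), and changed no other count of members. Other pseudocounts, filters and scalings changed none of the 3 counts beyond these; median-of-ratios scaling moved the median of all genes by 0.105 at 48 h against 0 h in KO cells and by less elsewhere.

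With each library left out in turn, the count ranged from 0 to 1 in both genotypes at 24 h and 48 h against 0 h, and was 0 in the other 7 comparisons. The C5 fold ranged from 1.35 to 1.74 and from 1.23 to 1.62 at 24 h and 48 h in WT cells, and from 0.79 to 1.40 and from 1.02 to 1.44 in KO cells. Its difference between the responses at 48 h ranged from -0.46 to 0.064, and its fold at 48 h over 24 h in KO cells from -0.24 to 0.38, so both changed sign. Depth limits what can be said of the 9 untested members, of those above 0 in few libraries and of CPB2 at 24 h in KO cells.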
